A study of Mus musculus with 6 samples.

Results

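The genes described here are those of the epithelial tight junction: the claudins, occludin and its relatives, the junctional adhesion molecules (JAMs) and the scaffolds that hold them at the membrane. They were chosen by name from the deposited table, as every gene named Cldn followed by a number, the Tjp genes of the ZO scaffolds, Marveld1 to Marveld3, and Ocln, F11r, Jam2, Jam3, Cgn, Cgnl1, Magi1, Magi3, Pard3, Pard6b and Inadl. This gave 39 of the 22667 genes in the table, 22 of them claudins. The table holds RNA-seq values for embryonic mouse kidneys at E13.5, from 3 embryos of genotype Fat4-/- and 3 wildtype embryos of that litter (Fat4+/+), with both kidneys of an embryo pooled into 1 library and most of the ureter taken off. All embryos came from 1 pregnant female of a C57BL6/6 strain at the 6th backcross, so the spread measured is that between littermates. Fat4 is a giant atypical cadherin of the Hippo and planar polarity pathways. Which part of the gene is mutated is not given in the sources.

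Claudins are membrane proteins that join end to end into strands and, through their extracellular loops, decide which ions pass between epithelial cells. Occludin and the MARVEL-domain proteins run in the same strands, JAMs are immunoglobulin-type adhesion proteins beside them, and the ZO proteins, encoded by Tjp genes, anchor the strands to actin. In the kidney each tubule segment carries its own set of claudins, and in vessels a different claudin, encoded by Cldn5, seals endothelial cells.

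Values are cRPKM (RPKM, reads scaled by gene length and library size, in a corrected form), so levels can be set side by side between genes. The cRPKM of a library summed to 473695 to 503223. The number of reads is unknown. Step sizes among low values, searched near a factor of 1, gave the libraries relative depths of 0.906 to 1.04 with wildtype embryo 1 set to 1. This search could return only depths near 1. The depth found explained 17 to 23 of the 28 to 35 genes used per library, so equal depth was not shown. Fat4 was at 15.7 to 16.8 cRPKM in wildtype embryos and 7.20 to 7.82 in Fat4-/- libraries, which separated the libraries by their labels. Genes of the ureteric bud, nephron, stroma and vessels were all present, as listed below beside the results they touch. The ureter gene Upk3a was at 0.02 cRPKM or less in every library. The 3 wildtype embryos and Fat4-/- embryo 1 expressed genes of the Y chromosome (Uty, Eif2s3y, Kdm5d, Ddx3y), and Fat4-/- embryos 2 and 3 did not (mean log2 scores of 4 to 4.13 against 0.0285 and 0.0530). In bulk tissue, fewer cells of a type and less RNA per cell cannot be told apart, and this holds for each value below.

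The promoters of 5 members are shown: that of Cldn5 because the gene fell, and those of the chromosomal neighbours Cldn3 and Cldn4, and Ocln and Marveld2, because their ratios are compared further on. None of the neighbours passed the test on its own. The window of Cldn6 reaches into its annotated transcript and is not printed. Each is the 250 bases before a RefSeq transcription start (GRCm38.p6), written 5′ to 3′ on the strand of the gene. Cldn5 lies at chr16:18776597-18776846 (plus strand), Cldn3 at chr5:134985964-134986213 (plus), Cldn4 at chr5:134946935-134947184 (minus), Ocln at chr13:100552719-100552968 (minus) and Marveld2 at chr13:100616972-100617221 (minus). Capitals mark matches, on either strand, to 5 motifs: the GC box GGGCGG, the E-box CAGGTG that Snail, Slug and Zeb factors bind, the Grainyhead-like core AACNNGTT, the TATA box TATAAA and the ETS core AGGAAG.
Cldn5: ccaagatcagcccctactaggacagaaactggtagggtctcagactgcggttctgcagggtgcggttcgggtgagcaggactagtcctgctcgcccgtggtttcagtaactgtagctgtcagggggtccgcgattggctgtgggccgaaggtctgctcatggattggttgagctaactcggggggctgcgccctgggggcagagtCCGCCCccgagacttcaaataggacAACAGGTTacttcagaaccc
Cldn3: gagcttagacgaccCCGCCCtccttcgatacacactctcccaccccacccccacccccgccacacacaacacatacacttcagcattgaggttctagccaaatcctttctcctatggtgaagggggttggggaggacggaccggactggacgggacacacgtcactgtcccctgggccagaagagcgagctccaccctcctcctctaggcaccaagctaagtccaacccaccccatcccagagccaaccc
Cldn4: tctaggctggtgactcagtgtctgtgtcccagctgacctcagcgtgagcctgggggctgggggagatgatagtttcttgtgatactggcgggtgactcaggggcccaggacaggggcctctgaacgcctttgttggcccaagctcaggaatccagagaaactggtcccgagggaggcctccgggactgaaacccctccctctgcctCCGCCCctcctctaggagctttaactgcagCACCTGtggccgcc
Ocln: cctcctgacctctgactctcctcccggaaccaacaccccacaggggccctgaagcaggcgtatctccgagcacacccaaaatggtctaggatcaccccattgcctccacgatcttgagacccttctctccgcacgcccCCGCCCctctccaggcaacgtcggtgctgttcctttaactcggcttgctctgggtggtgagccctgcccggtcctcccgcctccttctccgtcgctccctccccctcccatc
Marveld2: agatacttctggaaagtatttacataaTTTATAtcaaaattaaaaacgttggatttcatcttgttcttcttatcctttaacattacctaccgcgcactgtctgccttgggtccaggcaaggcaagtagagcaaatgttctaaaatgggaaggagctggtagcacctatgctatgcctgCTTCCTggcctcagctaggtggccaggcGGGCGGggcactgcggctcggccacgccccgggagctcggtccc
All 5 windows held a GC box, beginning 45, 236, 44, 112 and 44 bases before the start in the order shown. Among the windows shown Cldn4 had an E-box, 14 bases before the start, and Cldn5 a Grainyhead-like core, 20 bases before it. Marveld2 had a TATA box at 223 and an ETS core at 72 bases. Ocln and Marveld2 each had 2 RefSeq starts, and the window of the start farther upstream is shown. The window of the other Ocln start (chr13:100552499-100552748) held 2 E-boxes and a GC box, and that of the other Marveld2 start held the same motifs as the one shown. Over the 46 RefSeq promoters of 31 matched members, 54.3% held the GC box, 26.1% the E-box and 6.52% the Grainyhead-like core, against 32.7%, 17.2% and 3.64% of all 32851 promoters of the same length. The TATA box was in 8.70% of member promoters and 12.4% of all, and the ETS core in 26.1% and 29.5%. Promoters of members had a median GC content of 58.6%, against 52.4% for all. Matches of different motifs may overlap, and a match is a description of these letters.

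In wildtype kidneys the tight junction was led by Cldn6, a claudin gene of embryonic epithelia, with 61.6, 61.2 and 69.5 cRPKM. The next in order was Tjp1, the gene for ZO-1, at 39.8, 37.7 and 41.1 cRPKM, which stood clear of Cldn6 in every library. F11r, which encodes JAM-A, was at 36.7, 37.8 and 37.3 cRPKM, and Jam3, for JAM-C, at 35.6, 33.5 and 33.5. Tjp1 overlapped F11r in its range, so the order of those neighbours is not fixed by these libraries. Cldn8, a claudin of the distal nephron and collecting duct, followed with 30.2, 29.1 and 33.2 cRPKM. Cldn7, Cldn4 and Cldn5 had wildtype means of 26.4 ± 2.35, 26.4 ± 2.20 and 26.3 ± 2.12 cRPKM (SD, n = 3) and could not be ordered. The Cldn6 transcript made up 26.9% ± 0.357 of the summed claudin cRPKM in wildtype kidneys (SD, n = 3), Cldn8 13.0% ± 0.0471, Cldn4 11.1% ± 0.203, Cldn7 11.1% ± 0.592 and Cldn5 11.1% ± 0.648.

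**Figure D1:**
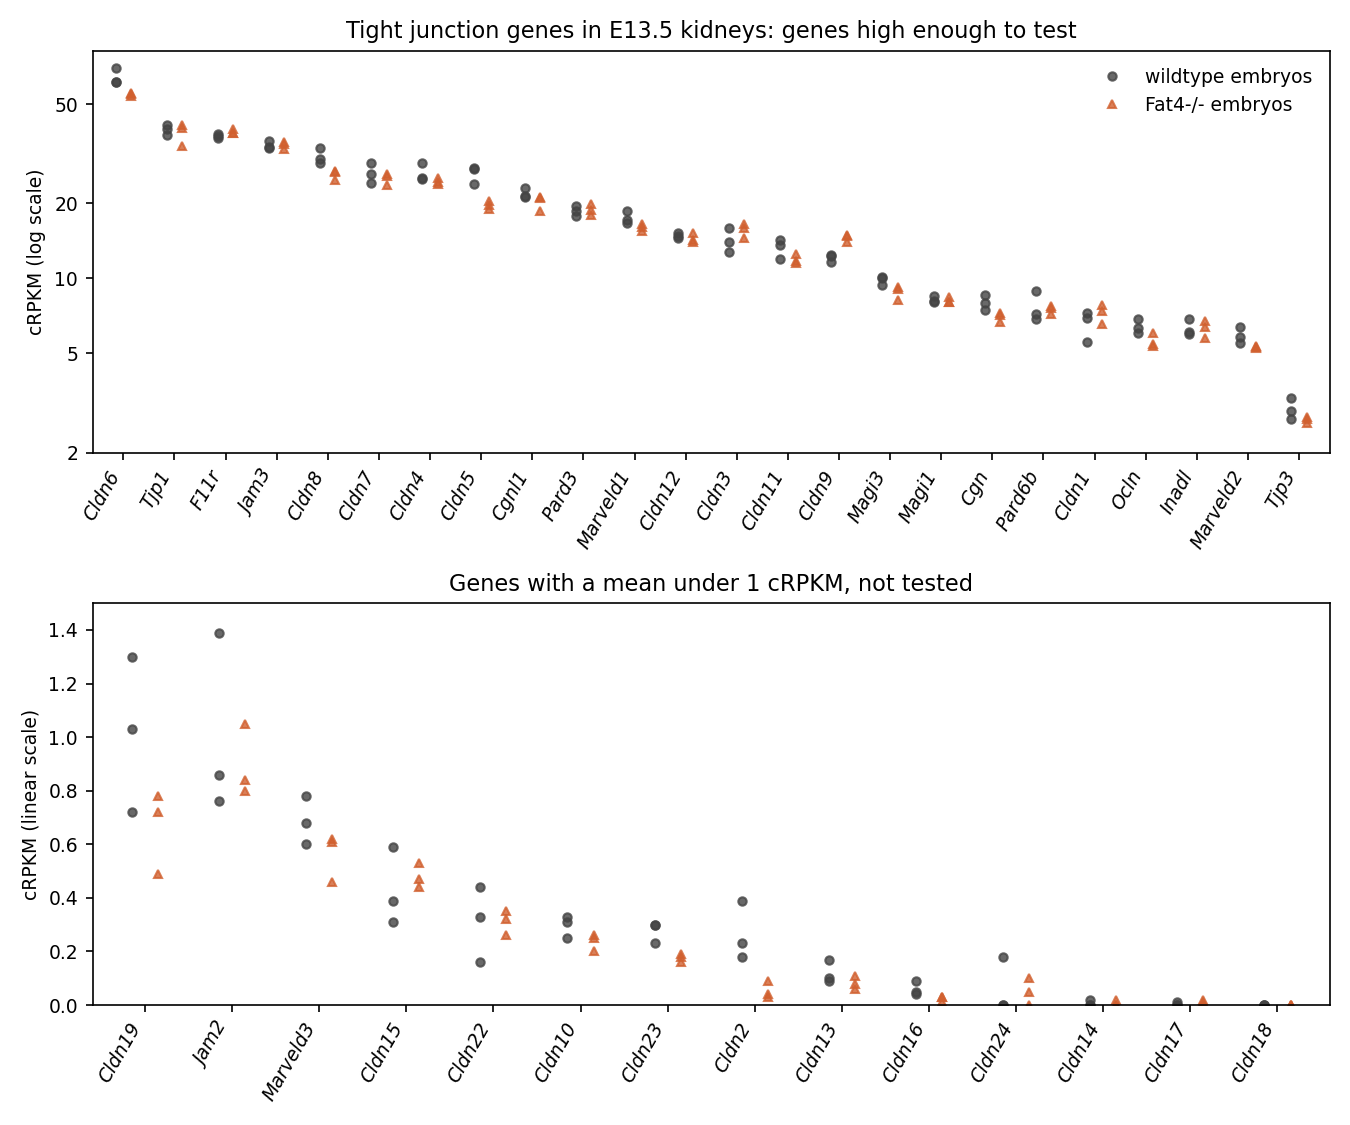
Expression of the tight junction genes in each embryo, in cRPKM, ordered by wildtype mean, with circles for wildtype and triangles for Fat4-/- embryos. The upper plot has 24 of the 25 genes high enough to test on a log axis, led by Cldn6, and the lower plot has the 14 genes with a mean under 1 cRPKM on a linear axis.

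The comparison of Fat4-/- with wildtype kidneys asks how loss of Fat4 changes expression in the developing kidney. Of the 39 genes, 25 averaged 1 cRPKM or more across all libraries and were tested, 10 of them claudins. Cldn9 rose and Cldn5 fell, and the other 23 did not pass (limma on log2(cRPKM + 1) over 12315 genes, adjusted p under 0.05). With 1 library left out at a time, 0 to 1 members were called, as given below for each gene. Over all tested genes 1.43% were called, 0.552% higher and 0.877% lower. At an unadjusted p under 0.05, 1 member was higher and 7 were lower, against 5.08% and 7.97% of all tested genes. The differences were small: the median log2 fold change of the tested members was -0.07, against -0.01 for all tested genes, and 18 of the 25 were below 0 (72.0%, against 56.8% of all tested genes). Fat4-/- and wildtype values did not overlap for 9 members, 2 of them higher (Cldn9 and F11r) and 7 lower (Cldn5, Cldn6, Cldn8, Cgn, Magi3, Marveld1 and Marveld2), where 18.2% of all tested genes had no overlap, 890 of them higher and 1355 lower.

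**Figure D2:**
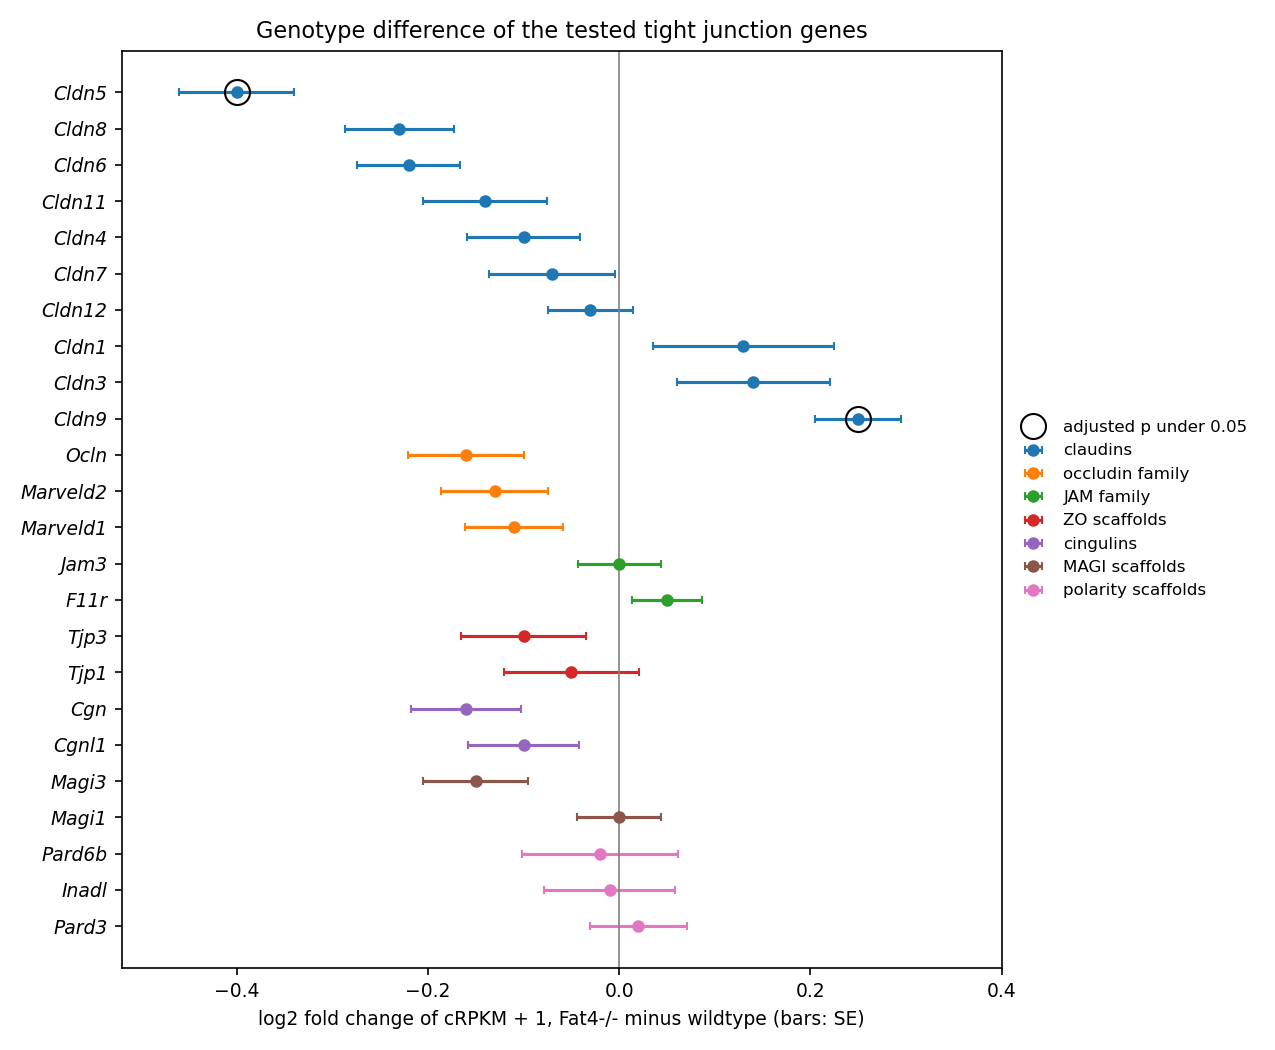
Log2 fold change of 24 of the 25 tested tight junction genes, Fat4-/- minus wildtype on the log2(cRPKM + 1) scale, with its standard error and coloured by family. Rings mark the genes with an adjusted p under 0.05, Cldn5 at -0.40 and Cldn9 at 0.25, and the other genes have no ring.

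Cldn5 encodes the claudin that seals endothelial cells and lies on chromosome 16 (18776847 to 18778262, plus strand, GRCm38, GENCODE M21), with no other annotated gene over it. It was at 27.4, 23.9 and 27.7 cRPKM in wildtype embryos and at 19.1, 20.4 and 19.6 in Fat4-/- embryos. Every Fat4-/- embryo lay below every wildtype embryo. Means were 26.3 ± 2.12 and 19.7 ± 0.652 cRPKM (SD, n = 3), a fall to 74.8% of the wildtype level, with a log2 fold change of -0.40 (SE 0.0602, limma adjusted p = 0.0229). Its share of the summed claudin cRPKM was 11.8%, 10.6% and 10.8% in wildtype and 8.96%, 9.19% and 9.15% in Fat4-/- libraries. Fat4-/- embryo 1, which expressed the Y-linked genes as the wildtype embryos did, had the lowest value of the 6. Cldn5 passed without wildtype embryo 2 (limma adjusted p = 0.0150) or 3 (0.0449) and did not without wildtype embryo 1 (0.0609) or Fat4-/- embryo 1, 2 or 3 (0.0901, 0.0685 and 0.0894). With a Y-linked score as covariate its log2 fold change was -0.44 and it did not pass (0.367), nor did it with no minimum on expression (0.0795).

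Genes that mark endothelium were measured beside it. Of 10 such genes, all tested, none passed, and 9 had a fold change below 0 (56.8% of all tested genes did). At an unadjusted p under 0.05, 3 were lower and none higher (7.97% and 5.08% of all tested genes). The median log2 fold change of the 10 markers was -0.04, with a range of -0.34 to 0.05. Cdh5, for VE-cadherin of endothelial adherens junctions, was at 38.4 ± 2.60 and 38.1 ± 2.45 cRPKM in wildtype and Fat4-/- kidneys (SD, n = 3), and Pecam1, an adhesion gene of endothelium, at 30.8 ± 1.03 and 30.1 ± 1.54. Tek, the angiopoietin receptor gene, was nearest to passing, with 11.3 ± 0.800 and 8.73 ± 0.739 cRPKM (log2 fold change -0.34, limma adjusted p = 0.0599). Tek, Egfl7, Emcn and Erg were lower in every Fat4-/- embryo than in every wildtype embryo, and the other 6 overlapped. Over all 12315 tested genes, 1355 were lower without overlap. None of the 10 genes was at 0, and their summed level ran from 187 to 197 cRPKM in wildtype and from 177 to 186 in Fat4-/- libraries. The log2 level of Cldn5 over the mean of these markers was 0.689, 0.558 and 0.695 in wildtype and 0.264, 0.440 and 0.318 in Fat4-/- libraries, a difference of -0.31 (exact 2-sided permutation test, p = 0.1, the smallest that 3 against 3 allows, and 0.15 adjusted over 3 ratios). Cldn5 alone already differed between genotypes without overlap, so the separation of this ratio was largely set by Cldn5 itself. The part of endothelial content in the fall of Cldn5 was not tested. Jam2, an adhesion gene of endothelial and other cells, was under the minimum and overlapped, with 1.39, 0.860 and 0.760 cRPKM in wildtype embryos and 0.800, 0.840 and 1.05 in Fat4-/- libraries.

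**Figure D3:**
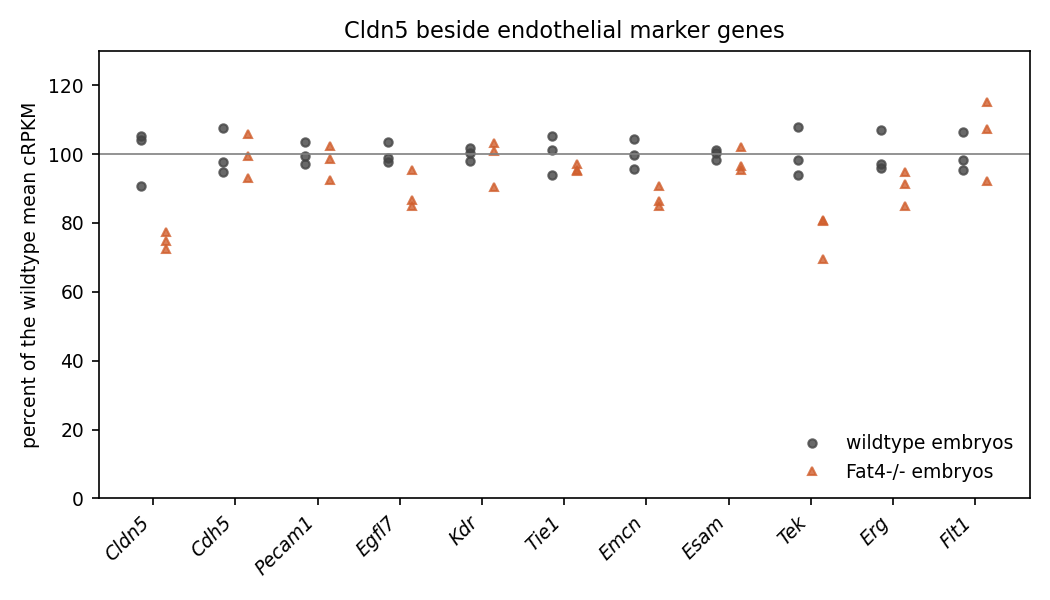
Cldn5 and 10 endothelial marker genes in each embryo, as a percent of the wildtype mean cRPKM of that gene, with circles for wildtype and triangles for Fat4-/- embryos. The 3 Fat4-/- values of Cldn5 average 74.8% of wildtype, and those of Tek, Egfl7, Emcn and Erg also lie wholly below wildtype, while the other 6 markers have overlapping groups.

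Cldn9, a claudin gene of immature tubules and the inner ear, was the member that rose. It was at 11.6, 12.3 and 12.5 cRPKM in wildtype embryos and at 14.81, 14.97 and 14.06 in Fat4-/- embryos, and the groups did not overlap. The mean went from 12.1 ± 0.448 to 14.6 ± 0.486 cRPKM (SD, n = 3), a ratio of 1.21 and a log2 fold change of 0.25 (SE 0.0451, limma adjusted p = 0.0382). Cldn9 lies on chromosome 17 (23682584 to 23684026, minus strand, GRCm38), and its 3′ end is 137 bases from the 3′ end of Cldn6 (23679249 to 23682446, plus strand). Whether reads were counted by strand is not given in these sources. No run of 50 bases was shared between their annotated transcripts. Cldn9 passed in none of the 6 fits that left out 1 library: limma adjusted p was 0.112, 0.0905 and 0.0574 without wildtype embryos 1, 2 and 3 and 0.132, 0.132 and 0.0884 without Fat4-/- embryos 1, 2 and 3. It did not pass with the Y-linked covariate (log2 fold change 0.27, 0.489) or with no minimum (0.0879).

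Cldn6 itself was at 61.6, 61.2 and 69.5 cRPKM in wildtype embryos and at 54.7, 55.4 and 54.1 in Fat4-/- embryos. All Fat4-/- values were lower than all wildtype values, but the gene did not pass over all genes (log2 fold change -0.22, SE 0.0536, limma adjusted p = 0.0979). The ratio of Cldn9 to Cldn6 within a library was 0.188, 0.201 and 0.179 in wildtype and 0.271, 0.270 and 0.260 in Fat4-/- libraries. Its mean was 0.189 ± 0.0108 against 0.267 ± 0.00603 (SD, n = 3). Cldn9 was higher and Cldn6 lower in every Fat4-/- embryo, so this ratio could not overlap, and it is a description with no test.

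Other members also sit side by side in the genome. Cldn3 and Cldn4 are on chromosome 5, 39279 bases apart on opposite strands. Cldn3 was at 12.7, 14.0 and 16.0 cRPKM in wildtype embryos and 14.5, 16.5 and 16.0 in Fat4-/- embryos (limma adjusted p = 0.539). Its exons overlap those of the antisense gene Wbscr25, so its reads are uncertain. Cldn4 was at 25.4, 25.0 and 29.0 cRPKM in wildtype embryos and 24.0, 25.4 and 24.4 in Fat4-/- embryos (limma adjusted p = 0.542). Both genes overlapped between genotypes, while their ratio, Cldn3 to Cldn4, did not: 0.501, 0.560 and 0.551 in wildtype and 0.605, 0.652 and 0.656 in Fat4-/- libraries (exact 2-sided permutation test p = 0.1, the smallest this design allows, 0.15 adjusted over 3 ratios). Ocln and Marveld2, 43238 bases apart on chromosome 13 and on the same strand, had a ratio of Marveld2 to Ocln of 0.926 ± 0.0109 in wildtype and 0.943 ± 0.0523 in Fat4-/- kidneys (SD, n = 3, exact 2-sided permutation test p = 0.6).

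**Figure D4:**
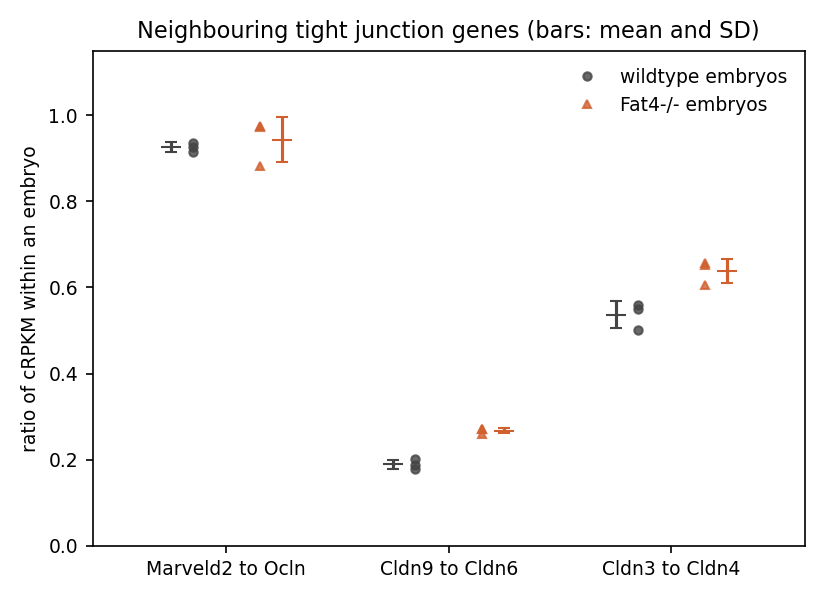
Ratio of cRPKM between neighbouring tight junction genes within each embryo, with circles for wildtype, triangles for Fat4-/- embryos, and bars for the mean and SD. The groups stand apart for Cldn3 to Cldn4 and overlap for Marveld2 to Ocln, and for Cldn9 to Cldn6 (0.189 and 0.267) the gap follows from the values of the single genes.

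The remaining tested claudins did not pass. Cldn8 was at 30.2, 29.1 and 33.2 cRPKM in wildtype embryos and 26.7, 26.9 and 24.8 in Fat4-/- embryos (log2 fold change -0.23, SE 0.0568, limma adjusted p = 0.109), with no overlap. Cldn7, a claudin of the basolateral membrane in collecting duct, was at 24.3, 26.1 and 28.9 against 23.7, 25.7 and 26.1 cRPKM and overlapped (adjusted p = 0.75). Cldn11, known from myelin and Sertoli cells, had means of 13.3 ± 1.16 and 11.9 ± 0.546 cRPKM (SD, n = 3, limma adjusted p = 0.416), and Cldn1, the barrier claudin of skin, 6.59 ± 0.915 and 7.27 ± 0.655 (adjusted p = 0.641). Cldn12 had 14.8 ± 0.331 and 14.5 ± 0.644 cRPKM (adjusted p = 0.831). Summed over all claudins, cRPKM was 232, 226 and 256 in wildtype and 213, 222 and 215 in Fat4-/- libraries, so that each Fat4-/- sum lay below each wildtype sum. The sum holds Cldn5, Cldn6 and Cldn8, which were lower without overlap as single genes, and Cldn9, which was higher. It is therefore no separate result, and a share of it can rise because the sum is lower. Within that sum the share of Cldn9 was 5.10% ± 0.298 in wildtype and 6.75% ± 0.205 in Fat4-/- kidneys, and that of Cldn3 5.97% ± 0.429 and 7.24% ± 0.371 (SD, n = 3).

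The occludin family had 3 tested members, all below 0 and none called. Ocln, which encodes occludin, was at 6.05, 6.30 and 6.85 cRPKM in wildtype embryos and 6.05, 5.38 and 5.47 in Fat4-/- embryos (log2 fold change -0.16, limma adjusted p = 0.312), with the lowest wildtype and highest Fat4-/- value equal. Marveld2, for tricellulin at the corners where cells meet, was at 5.53, 5.84 and 6.41 against 5.34, 5.24 and 5.32 cRPKM (-0.13, adjusted p = 0.356), without overlap. Marveld1 had means of 17.5 ± 1.05 and 16.1 ± 0.516 cRPKM (SD, n = 3, limma adjusted p = 0.399).

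None of the adhesion and scaffold genes passed. F11r was at 36.7, 37.8 and 37.3 cRPKM in wildtype embryos and 38.2, 39.7 and 38.2 in Fat4-/- embryos (log2 fold change 0.05, limma adjusted p = 0.609), a narrow gap without overlap. Jam3 was at 35.6, 33.5 and 33.5 against 34.5, 35.3 and 33.1 cRPKM and overlapped fully (adjusted p = 0.981). Its exons overlap those of the antisense gene Gm48796. Tjp1 was at 39.8, 37.7 and 41.1 cRPKM in wildtype embryos and 41.1, 34.1 and 40.0 in Fat4-/- embryos (adjusted p = 0.844), with Fat4-/- embryo 2 the lowest of the 6. Tjp3, for ZO-3, had means of 2.99 ± 0.297 and 2.71 ± 0.0819 cRPKM (SD, n = 3, limma adjusted p = 0.574). The exons of Tjp3 overlap those of Apba3 on the other strand.

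Cgn, for cingulin, which links the junction to myosin, was at 7.44, 7.97 and 8.56 cRPKM in wildtype embryos and 7.26, 6.70 and 7.15 in Fat4-/- embryos (log2 fold change -0.16, limma adjusted p = 0.277), without overlap. Its relative Cgnl1 had 21.8 ± 0.994 and 20.3 ± 1.40 cRPKM (adjusted p = 0.517). Magi3, a PDZ scaffold, was at 10.1, 9.38 and 10.1 against 9.23, 8.21 and 9.03 cRPKM (-0.15, adjusted p = 0.302), again without overlap, while Magi1 was at 8.22 ± 0.265 and 8.20 ± 0.208 cRPKM (adjusted p = 0.988). The polarity scaffolds, which set apical against basolateral membrane, had log2 fold changes between -0.02 and 0.02: Pard3 at 18.6 ± 0.801 and 18.8 ± 0.981, Pard6b at 7.67 ± 1.07 and 7.53 ± 0.275, and Inadl, for PATJ, at 6.33 ± 0.494 and 6.29 ± 0.502 cRPKM (SD, n = 3). Their lowest limma adjusted p was 0.937.

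Wildtype embryo 3 stood apart across the tight junction genes. It had the highest value of the 6 libraries for 16 of the 25 tested members, against 20.4% of all tested genes, and the highest of the 3 wildtype libraries for 19. The median level of the members relative to the wildtype mean was -0.05, -0.03 and 0.07 on the log2 scale in wildtype embryos 1, 2 and 3 and -0.07, -0.08 and -0.05 in Fat4-/- embryos 1, 2 and 3. The summed cRPKM of ureteric epithelium markers was also highest in wildtype embryo 3. It was 302, 309 and 349 in wildtype and 297, 304 and 292 in Fat4-/- libraries. Among the Fat4-/- embryos the order differed, as embryo 2 had the highest marker sum and the lowest member median. Of the 12 ureteric markers tested none passed, and 9 were below 0 (56.8% of all tested genes were), with a median log2 fold change of -0.11. At an unadjusted p under 0.05, 6 were lower and none higher (7.97% and 5.08% of all tested genes). Cdh1, the E-cadherin gene, was at 25.7, 26.9 and 35.2 cRPKM in wildtype embryos and 20.8, 21.2 and 23.1 in Fat4-/- embryos. Its log2 fold change, -0.40, was the lowest of these markers, while Ret, Calb1 and Wnt11 were above 0 (0.15, 0.12 and 0.01). Gata3, Hoxb7 and Wnt9b were near 0 (-0.02, -0.03 and -0.08). The 6 ureteric markers lower at an unadjusted p under 0.05 were Cdh1, Krt8, Krt18, Krt19, Epcam and Wnt7b. Markers of the early nephron summed to 162, 183 and 217 cRPKM in wildtype embryos and 153, 154 and 173 in Fat4-/- libraries. Of the 11 tested 1 was called lower, Hnf4a (0.877% of all tested genes were), 8 were lower and none higher at an unadjusted p under 0.05 (7.97% and 5.08% of all tested genes), and 9 were below 0, with a median log2 fold change of -0.27. The part of these epithelial markers in the lower values of Cldn6, Cldn8, Cgn, Ocln and Marveld2 was not tested. Without wildtype embryo 3 Cldn6 was at -0.16 and Cldn8 at -0.18 (limma adjusted p = 0.154 and 0.196), the median of the members was -0.03, and Cldn9 was at 0.27 (0.0574).

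**Figure D5:**
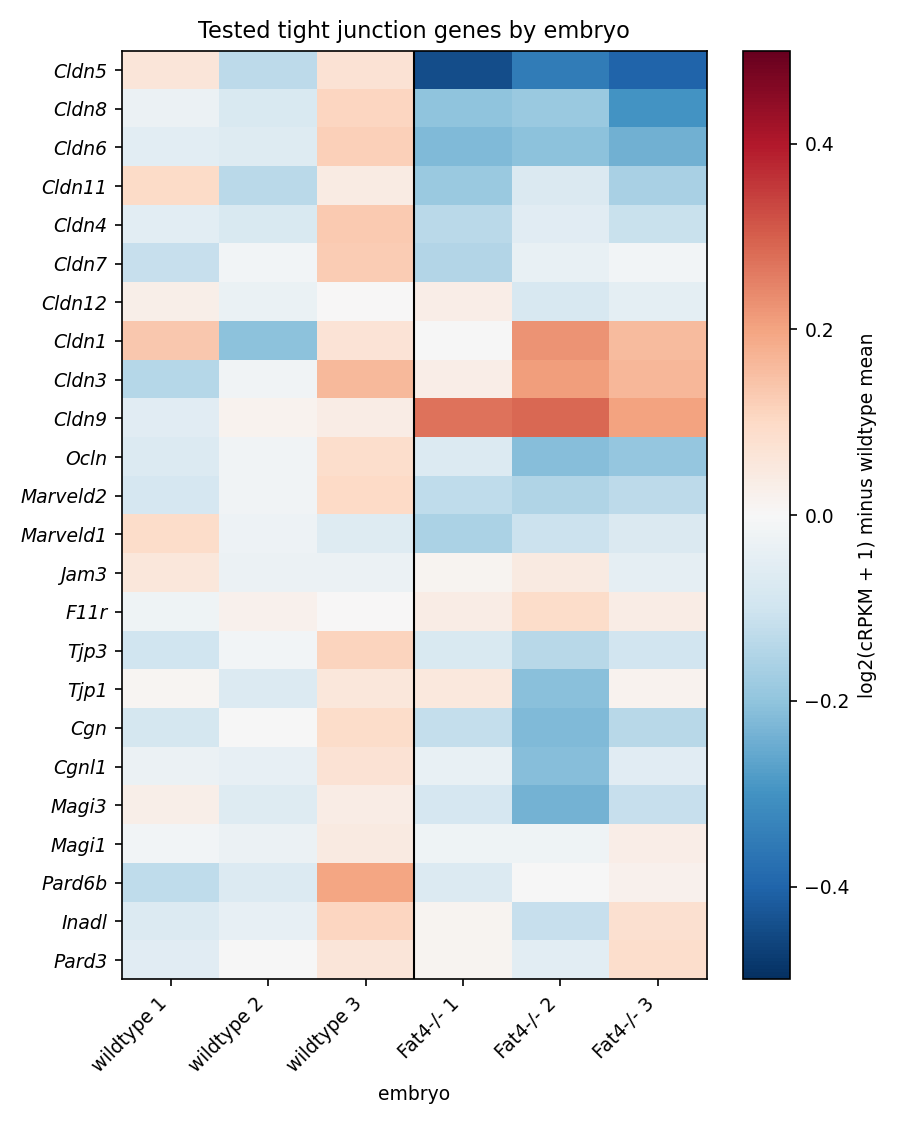
The tested tight junction genes but 1 (rows, grouped by family) in each embryo (columns), as log2(cRPKM + 1) minus the wildtype mean of that gene, red above and blue below. The column of wildtype embryo 3 is mostly red, the row of Cldn5 is blue in all 3 Fat4-/- embryos, and the row of Cldn9 is red in them.

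Markers of other cells in the dissected tissue are given for the same comparison. Over all tested genes 0.552% were called higher and 0.877% lower. At an unadjusted p under 0.05 these shares were 5.08% and 7.97%. Nephron progenitor genes summed to 296 to 329 cRPKM in wildtype embryos and 365 to 421 in Fat4-/- libraries, with 2 of 8 called higher and 7 higher at an unadjusted p under 0.05, and stromal genes to 558 to 686 and 542 to 585, with 1 of 11 called lower and 3 lower unadjusted. Podocyte genes summed to 91.4 to 101 and 94.4 to 98.0 cRPKM, macrophage genes to 15.2 to 22.7 and 17.5 to 21.0, and erythroid genes to 840 to 1630 and 1050 to 1660, with none called. Of the 4 podocyte genes tested, 3 were lower and 1 higher at an unadjusted p under 0.05. Nerve and neural crest genes summed to 10.8 to 15.9 and 11.6 to 14.8 cRPKM, and skeletal muscle genes to 4.29 to 9.35 and 4.20 to 6.30.

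Below the minimum of 1 cRPKM were 14 members, 12 of them claudins, many of which belong to mature tubule segments. Cldn18, a claudin of lung and stomach, was listed at 0 in every library. Of the other 13, the Fat4-/- mean was lower for 9 and higher for 2, where 59.6% of the 6420 genes under the minimum had a lower mean. Cldn2, the cation pore of the proximal tubule, was at 0.23, 0.18 and 0.39 cRPKM in wildtype embryos and 0.03, 0.04 and 0.09 in Fat4-/- embryos. Cldn23 was at 0.30, 0.23 and 0.30 against 0.18, 0.19 and 0.16 cRPKM, and Cldn16, of the thick ascending limb, at 0.04, 0.05 and 0.09 against 0.01, 0.03 and 0.03. These were the 3 low members whose groups did not overlap, all of them lower, where 9.81% of the genes under the minimum were lower and 2.91% higher without overlap. With no minimum none of the 13 passed (limma adjusted p = 0.155 for Cldn2, 0.157 for Cldn23 and 0.419 for Cldn16). Unadjusted p was 0.00434 for Cldn2 and 0.00449 for Cldn23, in a limma fit that called 32 genes in all, against 176 with the minimum. Cldn19, the partner of Cldn16, was at 1.03, 0.720 and 1.30 against 0.720, 0.490 and 0.780 cRPKM and overlapped. Cldn22 and Cldn24, neighbours on chromosome 8, shared 423 of their 50-base runs, so their reads are uncertain. It was the single sharing pair among 741 pairs of members.

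Companion genes of the junction were counted as whole lists. Over all tested genes 5.08% were higher and 7.97% lower at an unadjusted p under 0.05. Of 20 other tested tight junction proteins none passed, with 2 higher and 1 lower at an unadjusted p under 0.05. The angiomotin gene Amotl2 was at 18.8 ± 0.656 and 21.7 ± 0.225 cRPKM (SD, n = 3, limma adjusted p = 0.0664), and Synpo, an actin organiser known from podocytes, at 3.75 ± 0.610 and 2.65 ± 0.0781 (adjusted p = 0.101). Of 20 apical polarity genes none passed and 5 were lower at an unadjusted p under 0.05, led by Prkcz and Prkci, the atypical protein kinases C that bind the Par complex (log2 fold changes -0.23 and -0.12, limma adjusted p = 0.108 and 0.219). Of 22 adherens junction and desmosome genes none passed, with 2 higher and 8 lower at an unadjusted p under 0.05. Cdh16, the kidney cadherin gene, was at 38.1, 38.8 and 48.0 cRPKM in wildtype embryos and 30.7, 28.9 and 32.0 in Fat4-/- embryos (-0.43, limma adjusted p = 0.0543), and the desmocollin gene Dsc2 was at -0.23 (adjusted p = 0.0940).

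Among 18 tested regulators of epithelial genes 2 fell and none rose, Zeb2 and Hnf4a, where 0.877% of all tested genes fell. At an unadjusted p under 0.05, 8 were lower and none higher (7.97% and 5.08% of all tested genes). Below 0 were 16 of the regulators (56.8% of all tested genes were), with a median log2 fold change of -0.13. The summed level of the regulators ran from 169 to 177 cRPKM in wildtype and from 146 to 151 in Fat4-/- libraries. The list mixes activators of epithelial genes, such as Grhl2, with repressors, such as Zeb2, so this sum measures neither alone. Hnf4a is also the early nephron marker called above, so the lists share that call. Zeb2, a repressor of epithelial genes, was at 19.3, 17.4 and 18.7 cRPKM in wildtype embryos and 14.6, 13.0 and 13.4 in Fat4-/- embryos (log2 fold change -0.41, SE 0.0559, limma adjusted p = 0.0191). Hnf4a, the proximal tubule factor, was at 1.90, 1.57 and 3.79 against 0.390, 0.290 and 0.610 cRPKM (-1.21, limma adjusted p = 0.0352). Zeb2 did not pass without Fat4-/- embryo 2 or 3 (0.0685 and 0.0796), nor Hnf4a without wildtype embryo 1 or Fat4-/- embryo 1, 2 or 3 (0.0574, 0.128, 0.133 and 0.0922), and Hnf4a was under the minimum without wildtype embryo 3. Grhl2, an activator of claudin genes in epithelia, was at 4.61 ± 0.529 and 4.30 ± 0.242 cRPKM (SD, n = 3, limma adjusted p = 0.727).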

How the data were processed

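RNA-seq values of 6 libraries, 3 Fat4-/- and 3 wildtype embryos grouped by their titles, were taken from the authors' deposited table of cRPKM, a corrected RPKM. Per the file headers reads were trimmed; Bowtie and mm9 are named in the submitters' processing notes, and the correction is not given in these sources. All 6 columns were matched by the header text in the labels.

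Of 21553 genes with a value, 12315 had a mean of at least 1 cRPKM and were tested as log2(cRPKM + 1) in limma 3.58.1 (R 4.3.3; lmFit, eBayes with an intensity trend, a 2-sided test of genotype alone), adjusted by Benjamini-Hochberg over all tested genes, with calls at 0.05. Fold changes are on the log2(value + 1) scale and so understate changes of low genes. On simulated data with 200 of 12315 genes changed by 0.5 or 1 on the log2 scale, the fit recovered 92.0% and 99.0%. Both exceed the largest absolute log2 fold change among the members (0.40, median 0.10), so recovery of changes that small was not measured. Ratios within a library were compared by exact permutation tests over the 6 libraries; neighbours were taken within 100000 bases. RefSeq promoters were matched for all members but Cldn8, Cldn9, Cldn13, Cldn23, Jam2, Jam3, Marveld3 and 1 more. The values of 1 tested member are not reported here, though it is included in the counts. Positions are from GENCODE M21 and promoters from RefSeq, on GRCm38, which differs from mm9. Alternatives (closing section) were pseudocounts of 0.1 and 0.5, other filters and scalings, no trend, library weights, a block for the embryo number, the Y-linked covariate and each library left out.

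The members and gene lists were chosen with earlier results of these data known. Values in every library are given for the 8 members with the smallest p, the 6 with the highest wildtype level, called members and the highest member under the minimum. Of each companion list, called genes and the 2 with the smallest p are named. Cldn1, Cldn2, Cldn3, Cldn4, Cldn16, Cldn19, Cldn23 and Grhl2 were named after their values were seen. So were single ureteric and endothelial markers, the ratios and other members with means.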

Additional observations from a re-analysis of the deposited data

How the results depend on the processing

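The analysis as reported called 176 genes over all tested, 2 tight junction members (Cldn5 and Cldn9) and 2 genes of the companion lists (Zeb2 and Hnf4a). With 1 choice changed, no filter on low values, these counts were 32, 0 and 0, and with the Y-linked score as covariate 2, 0 and 0. The fit with the covariate in effect compares Fat4-/- embryo 1 with the wildtype embryos. With library weights the companion lists had 5 calls. The causes were not tested. Leaving out 1 library each time gave 24 to 132 calls over all genes, 0 to 1 among the members and 0 to 4 in the companion lists. Both member calls held with either other pseudocount, the lower minimum, both scalings, no trend and library weights. The median log2 fold change of the members kept its sign and moved by less than the spread between libraries in every alternative.

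With the embryo number as a replicate block there were 273 calls over all genes, 2 among the members and 8 in the companion lists. The labels do not say that embryos of 1 number belong together; deviations of same-numbered embryos from their group means had correlations of 0.0985, 0.205 and 0.277, and wildtype embryo 1 correlated best with Fat4-/- embryo 2 (0.227).

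Members near 0 changed sign, none with a call. With quantile normalisation Jam3 was at -0.00497, Magi1 at 0.02, Pard6b at 0.01 and Inadl at 0.03. With library weights Tjp1 was at 0.02, Magi1 at 0.01, Pard6b at 0.01 and Inadl at 0.03. With the Y-linked covariate Tjp1 was at 0.06, Cldn12 at 0.04 and Inadl at 0.01. With 1 library left out, the values ran from -0.10 to 0.03 for Tjp1, from -0.02 to 0.03 for Jam3, from -0.02 to 0.05 for Pard3, from -0.02 to 0.02 for Magi1, from -0.08 to 0.08 for Pard6b, from -0.05 to 0.05 for Inadl. The number of reads is unknown, so what depth limits among the 14 members under the minimum cannot be given.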
